A study of Mus musculus with 54 samples.

Results

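The first day of differentiation was examined in +EMD myogenic progenitors, which are EMD-/y H2K mouse progenitors given back wildtype emerin by lentiviral transduction and kept as 1 puromycin-selected line. H2K progenitors are conditionally immortal muscle precursor cells, and emerin is a LEM-domain protein of the inner nuclear membrane. Of the 54 RNA sequencing libraries of the series, 6 belong to this transition: 3 from +EMD cells at 0 h, called day 0, and 3 at 24 h, called day 1. Day 0 cells had been kept overnight in proliferation medium, which contained fetal bovine serum, chick embryo extract, and γ-interferon. Day 1 cells had then spent 24 h in differentiation medium, which contained horse serum and no interferon. Time, serum, interferon, and whatever else changed with the medium therefore cannot be told apart. Wildtype H2K progenitors and untransduced EMD-/y progenitors over the same day, and +EMD cells from day 1 to day 2, served for comparison, with 3 libraries in each group. The methods describe technical replicates from 2 biological replicates without saying which library is which. A lentiviral control line was not analysed here, so effects of emerin, of transduction, and of selection cannot be told apart.

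All 17378 genes listed for the transition were taken, with 1 value per gene for day 0 and 1 for day 1, in normalized counts (read counts divided by a library size factor). The deposited values are 1 number per group, so no spread between libraries, standard error, or test can be given, and every difference below is a description of these libraries. A gene was counted as measured when the larger of its values was at least 10, which left 13182 genes, and as higher or lower when its values differed by at least 2-fold. Below, "rose" and "fell" mean only that this rule was met, and a log2 ratio is day 1 over day 0. The values of genes with few reads are pulled toward each other, as described with the processing, so that their ratios are understated. Among +EMD genes listed at between 100 and 1000 normalized counts at day 0, the same libraries gave values in a second deposited table that differed by a median of 0.00129 on the log2 scale after a common offset, against 0.0385 at between 10 and 30. That check covered +EMD groups only, and some abundant wildtype genes differed more. For the same wildtype day 1 libraries, Iigp1 had 11983 in the wildtype transition and 7380 in the comparison with +EMD cells. H2-Aa had 312.5 and 74.4, so wildtype ratios of such genes depend on the comparison used. The values summed to 19.1 M normalized counts at day 0 and 18.1 M at day 1, and the size factors of the 6 libraries lay between 0.935 and 1.06.

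Skeletal muscle progenitors that are induced to differentiate normally leave the cell cycle, switch on myogenin, and then build the contractile apparatus and fuse into myotubes. Withdrawal relies on cyclin-dependent kinase inhibitors such as p21 and p57 and on the retinoblastoma protein, which holds back E2F factors. In H2K cells, a thermolabile SV40 large T antigen under an interferon-inducible promoter supports growth in proliferation medium, and large T binds p53 and retinoblastoma proteins.

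The mouse Emd gene (chromosome X, 74254674 to 74261563, GRCm38.p6) was listed at 0.268 normalized counts at day 0 and 0.376 at day 1, a level that corresponds to about 2 reads over the 6 libraries. Wildtype cells had 1888 and 1755 over the same day, and EMD-/y cells had 0.845 and 0.457. The row for the mouse gene therefore showed the loss of the mouse transcript in +EMD cells and none from the added emerin, so the labelled add-back has no check in these values, and the reason was not tested. Muscle progenitor genes were present at both days: Myod1, the determination factor of the myogenic lineage, had 19962 at day 0 and 18166 at day 1, Des, the muscle intermediate filament, had 16197 at day 0 and 23635 at day 1, and Pax7, a marker of muscle stem cells and progenitors, had 2224 at day 0 and 1976 at day 1. Some markers of other lineages were near 0 and others were not. Ptprc of leukocytes was at 0.985 and 1.90, Cdh5 of endothelium at 1.34 and 1.30, Plin1 of adipocytes at 0.178 and 0.156, and Lum of fibroblasts at 0.148 and 0.168. Of the 6 fibro-adipogenic and fibroblast markers measured, 1 rose and 1 fell, and the largest values were those of Col3a1, with 19682 at day 0 and 21421 at day 1. Acta2, listed with smooth muscle and also expressed by myoblasts, had 29154 at day 0 and 29328 at day 1. Tagln of the same list had 2669 at day 0 and 1367 at day 1. In the adipocyte list, Cebpa had 482 at day 0 and 457 at day 1, and Pparg fell from 111 to 32.1. Ly6a of the fibroblast list fell from 1285 to 315. Cd14 of the leukocyte list had 68.5 at day 0 and 104 at day 1. Tubb3 of the Schwann and neural list had 1869 at day 0 and 1032 at day 1. Tek and Vwf of the endothelial list rose at low levels (1.37 to 17.2 and 5.10 to 20.5), and that list summed to 22.6 at day 0 and 49.3 at day 1 over its 6 listed members, the leukocyte list to 93.7 and 136 over 6. The part of such cells in the results below was not tested.

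In +EMD cells, 1406 of the 13182 measured genes (10.7%) rose over the first day, whereas 945 (7.17%) fell. Of these, 459 rose and 211 fell by at least 4-fold, and 65.5% of measured genes stayed within 1.5-fold. The plot of day 1 against day 0 values shows the sarcomere and p53 genes above the diagonal and the interferon-response genes below it. Genes near the threshold are common: 176 genes had a log2 ratio between 1 and 1.1 and 173 one between 0.9 and 1. A total of 188 of the genes that rose and 149 of those that fell are predicted genes without a symbol, and these are not described further. The shares of 10.7% and 7.17% are the background for every first-day list count in +EMD cells below. A list whose shares lie near them is not set apart from all genes.

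**Figure D1:**
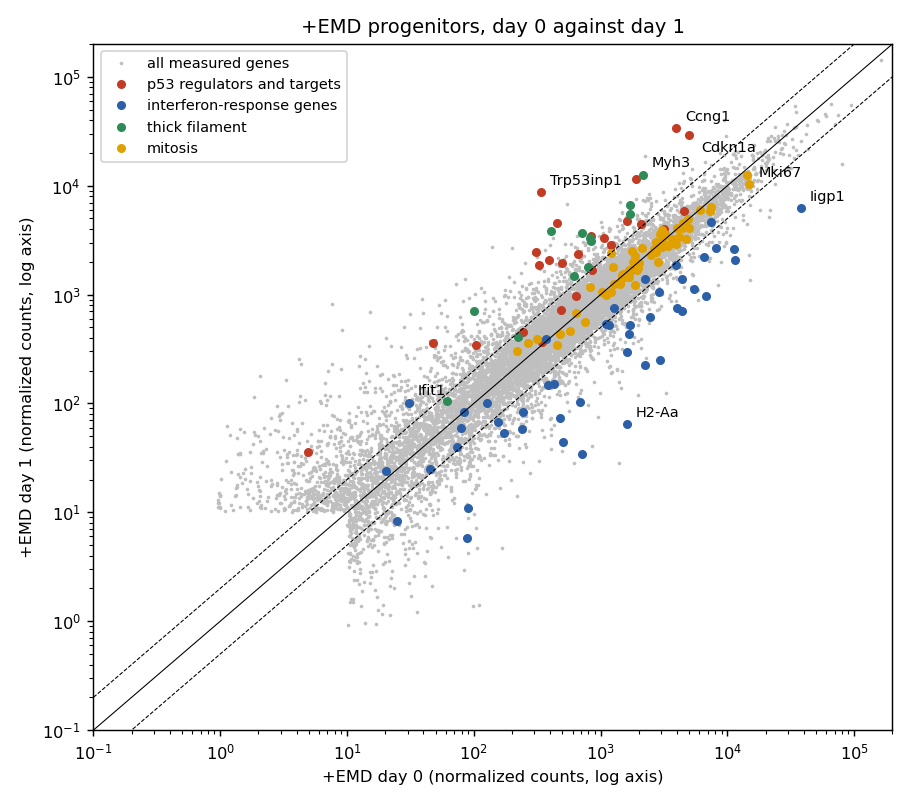
Day 1 against day 0 values of the 13182 measured genes in +EMD cells, in normalized counts on log axes, with 4 gene lists coloured. The solid line marks equal values and the dashed lines a 2-fold difference, and p53 genes such as Trp53inp1 (340.3 and 8746) lie above while interferon-response genes such as Iigp1 (38059 and 6198) lie below.

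The largest ratios among genes with a larger value of at least 100 and a smaller one of at least 3 were those of 1700007K13Rik (7.67 to 825 normalized counts), Samd12 (4.16 to 257), Ces2e, a carboxylesterase (4.34 to 230.4), Klhdc7a (9.18 to 475), and Nectin4, an adhesion molecule (3.28 to 166). Ltb4r2, a leukotriene B4 receptor, went from 15.1 to 697, Svop from 7.62 to 228, St14, the membrane protease matriptase, from 4.23 to 118, and Scn3b, a sodium channel subunit, from 7.12 to 197. Trp53inp1, a p53-induced protein, completed these 10 with 340.3 at day 0 and 8746 at day 1 and a log2 ratio of 4.68. All but Trp53inp1 were scarce at day 0, at 15.1 normalized counts or fewer. Over the same day the 10 genes also rose in wildtype cells, with log2 ratios between 2.74 (Svop) and 6.24 (1700007K13Rik), and in EMD-/y cells.

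At the other end, Lgr6, a receptor for R-spondins, fell from 1393 to 28.4 normalized counts, a log2 ratio of -5.62. Ccn2, a matricellular protein induced by Yap and TGF-β signalling, fell from 1986 to 119. The xenobiotic-metabolizing enzyme Cyp1a1 fell from 107 to 4.70, the chemokine Cxcl14 from 614 to 28.6, the melanin-concentrating hormone receptor Mchr1 from 220.2 to 14.1, and the serine protease inhibitor gene Serpina3f from 499 to 37. Slc7a11, the cystine transporter, fell from 852 to 41, and the interferon-response genes H2-Aa and Batf2 fell from 1608 to 64.9 and from 713 to 34.7. Slc7a11 had log2 ratios of -4.38 in +EMD, -2.63 in EMD-/y, and -0.44 in wildtype cells, and whether the lines differ was not tested.

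In absolute terms, 5 genes gained most: Actc1 (9413 to 39876 normalized counts), Ccng1 (3919 to 33964), Cdkn1a (4971 to 29006), Mest (34139.8 to 53373), and Myog (9744 to 28463). Those that lost most were Spp1 (79463 to 15918), Actg1 (93888 to 54850.0), Actb (70895 to 36469.8), Iigp1 (38059 to 6198), and Hspa8 (73789 to 44401). The cytoplasmic actins Actg1 and Actb and the chaperone Hspa8 lost many counts without meeting the 2-fold rule, with log2 ratios of -0.78, -0.96, and -0.73. Cytoplasmic β- and γ-actin thus had lower values at day 1 while the sarcomeric actins Actc1 and Acta1 rose. Actb and Actg1 have many near-identical processed copies in the genome, so the reads counted for them may be shared.

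Genes of the contractile apparatus held the highest shares of raised members among the lists examined, as the plot of gene lists shows. Of the measured members, 10 of 12 thick filament genes, 12 of 16 thin filament genes, and 15 of 19 genes of the Z-disc and of sarcomere assembly rose, and none of the 3 lists had a member that fell. The median log2 ratios were 1.93, 1.40, and 1.49, beside a median of about 0 over all measured genes. Myh3, the embryonic myosin heavy chain, rose from 2144 to 12657 normalized counts, and Myh8, the perinatal form, from 799 to 1772. Myl4, the embryonic and atrial light chain, had the largest rise of the thick filament genes (405 to 3846, 9.50-fold). Per kilobase of transcript, the myosin heavy chains at day 1 were ordered Myh3 (2091 normalized counts per kilobase), Myh1 (545), Myh8 (287), and Myh7 (118), and the adult fast forms Myh4 and Myh2 stayed at 1.12 and 0.335.

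In the thin filament, Actc1, cardiac α-actin, which is the main sarcomeric actin of early myotubes, rose 4.24-fold and Acta1, skeletal α-actin, rose 2.57-fold (8419 at day 0 and 21607 at day 1). Tnnc2, fast troponin C, rose most (425 to 3297), while Tpm3, a tropomyosin with cytoplasmic forms, had 11443 at day 0 and 9319 at day 1 and did not meet the rule. Ttn, the giant elastic protein of the sarcomere, rose from 4162 to 10566, and Klhl40, a stabilizer of thin filament proteins, rose most in its list (72.5 to 413). Des already stood at a high level at day 0 and had a log2 ratio of 0.55.

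**Figure D2:**
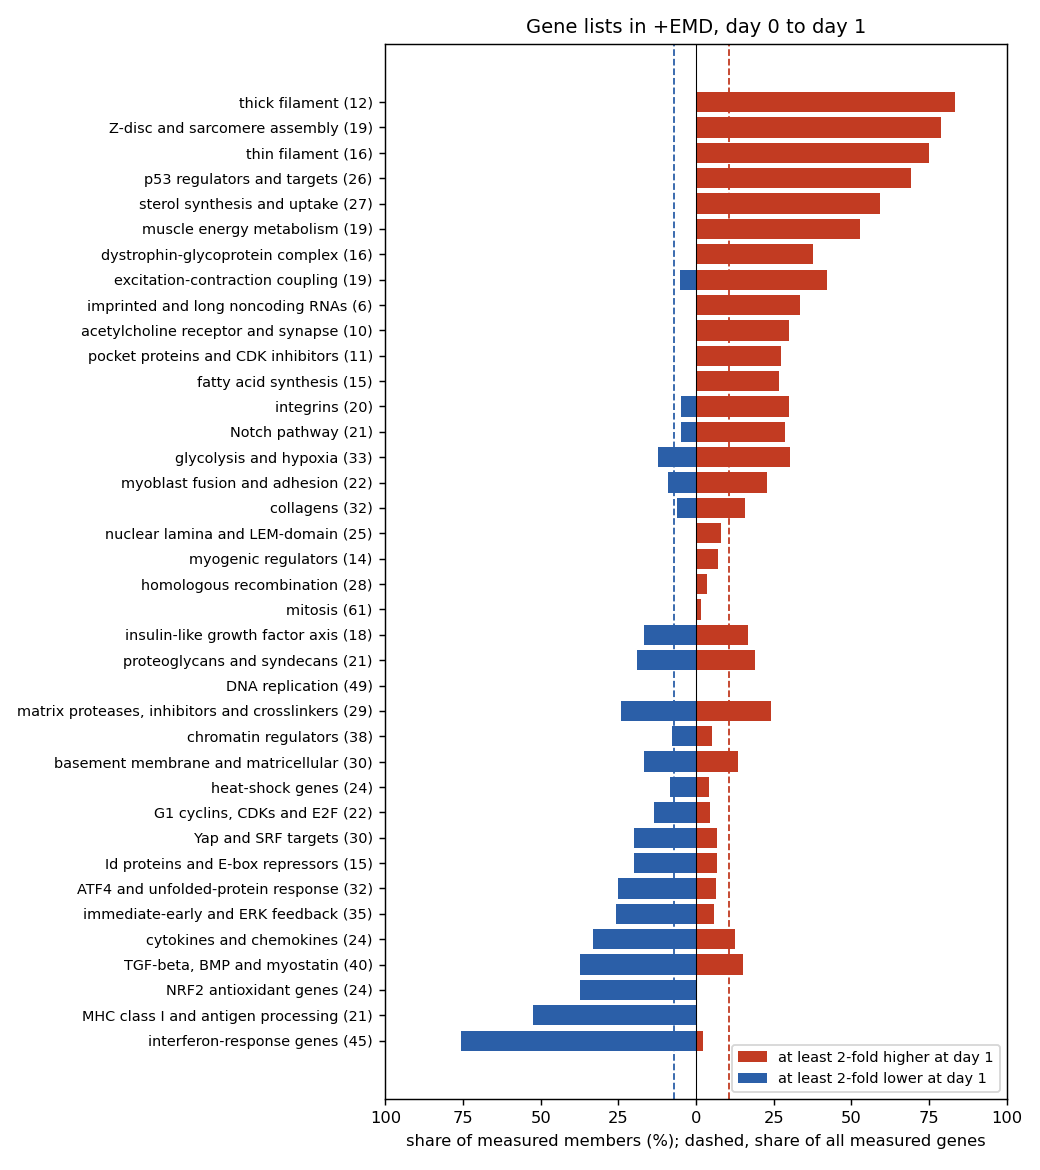
Share of the measured members of each list that were at least 2-fold higher (bars to the right) or lower (bars to the left) at day 1 in +EMD cells, with the number measured in parentheses. Dashed lines mark the shares among all measured genes, 10.7% and 7.17%, and bars run from 10 of 12 thick filament genes higher to 34 of 45 interferon-response genes lower.

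Other muscle systems followed in part. Of the measured genes of excitation-contraction coupling, 8 of 19 rose, led by Casq2, a calcium-binding protein of the sarcoplasmic reticulum (364 to 2547 normalized counts), and Clcn1, the muscle chloride channel, fell (11.9 to 3.44). Muscle energy genes rose in 10 of 19 cases, from Pygm, muscle glycogen phosphorylase (139 to 2707, 19.5-fold), to Fabp3, a fatty acid carrier (23.9 to 48.7). Ckm, muscle creatine kinase, rose from 115 to 355. Among acetylcholine receptor and synapse genes, Chrnd, Chrng, and Colq rose, that is 3 of 10, with Colq, the collagen tail of acetylcholinesterase, going from 2.48 to 52.5. In the dystrophin-glycoprotein complex, 6 of 16 rose, including Dag1, dystroglycan (4509 to 10921).

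The regulators above these genes moved less. Myog, the commitment factor of differentiating myoblasts, was the only 1 of 14 measured myogenic regulators that met the rule, with 9744 at day 0 and 28463 at day 1 and a 2.92-fold rise. The values of Myod1, Myf5 (1091 at day 0 and 1011 at day 1), and Pax7 had log2 ratios of -0.14, -0.11, and -0.17. Mef2c, a partner of the myogenic factors, had 148 at day 0 and 152 at day 1 and reached 3198 at day 2 in the table of the following day. Over the first day Mef2c had 1427 and 3930 in wildtype cells and 3208 and 6211 in EMD-/y cells. That difference between lines was not tested. Myf6 stayed below the floor of 10 at both days. In the list of Id proteins and E-box repressors, 3 of 15 measured members fell, all of them Id proteins, which hold E proteins away from the myogenic factors: Id1 from 2305 to 832, Id2 from 7137 to 2021, and Id3 from 4009 to 1378. Id4, at a low level, had 25.3 at day 0 and 30.8 at day 1. Heyl, a Notch effector, was the 1 member of that list that rose (477 to 1645). Both components of the fusion machinery rose, Mymk (myomaker) from 2333 to 7772 and Mymx (myomerger) from 249 to 862, within a fusion and adhesion list in which 5 of 22 members rose and 2 fell.

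Of the p53 regulators and targets, 18 of 26 measured members rose, none fell, and the median log2 ratio was 1.77. Ccng1, cyclin G1, had 3919 at day 0 and 33964 at day 1, an 8.67-fold rise. Mdm2, the ubiquitin ligase that limits p53, rose from 1885 to 11536, Eda2r, a death-domain receptor, from 454 to 4568, Btg2, an antiproliferative factor, from 307 to 2437, and the proapoptotic genes Bax and Pmaip1 from 1619 to 4772 and 1065 to 3292. Trp53 itself had 4513 at day 0 and 5896 at day 1, with a log2 ratio of 0.39. The CDK inhibitor Cdkn1a (p21), which is both a p53 target and part of the myogenic program, rose from 4971 to 29006. In the list of pocket proteins and CDK inhibitors, Cdkn1c (p57) and Rb1 were the other members that rose, from 2224 to 18801 and from 1419 to 7098. Among 80 measured cytosolic ribosomal protein genes, which were examined after their values were seen, the 1 that rose was Rps27l, itself a p53 target (809 to 1993).

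**Figure D3:**
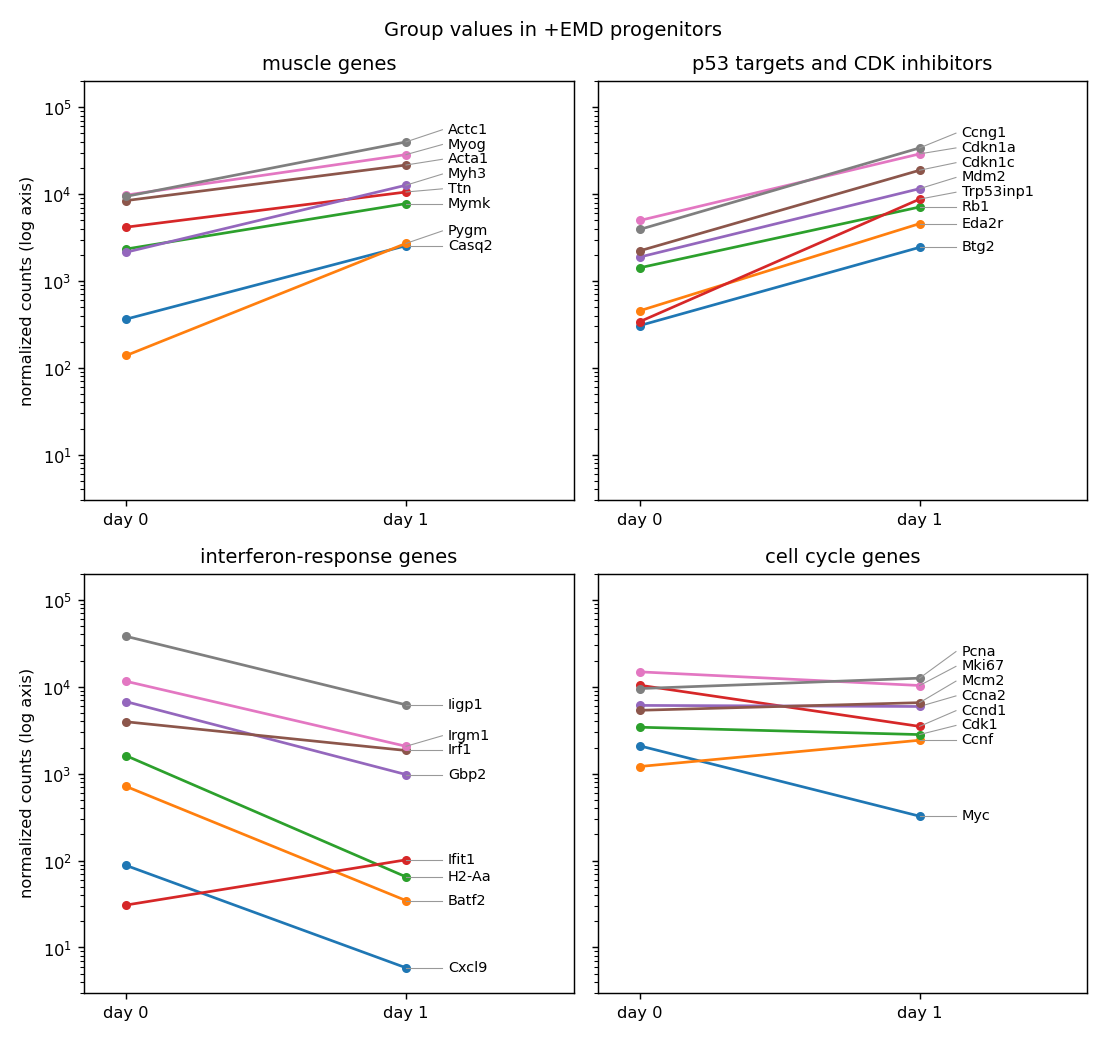
Day 0 and day 1 values of single genes in +EMD cells, in normalized counts on a log axis, for muscle genes, p53 targets and CDK inhibitors, interferon-response genes, and cell cycle genes. Each line joins the group values of 1 gene; every gene of the upper panels rises, 7 of the 8 interferon-response genes drop while Ifit1 rises from 30.8 to 102, and the cell cycle genes other than Ccnd1, Myc, and Ccnf stay within 2-fold.

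Measured genes of DNA replication, mitosis, and homologous recombination stayed within 2-fold over this day, apart from Ccnf and Rad51d. None of the 49 DNA replication genes rose or fell, and of 61 mitosis genes 1 rose, Ccnf (cyclin F, 1209 to 2426 normalized counts), and none fell. Their log2 ratios ran from -0.45 to 0.82 and from -0.60 to 1.00, with medians of 0.23 and -0.08. The replication factors Mcm2 and Pcna had 5364 at day 0 and 6568 at day 1 and 9539 at day 0 and 12565 at day 1, and the cyclin Ccna2 had 6106 at day 0 and 5934 at day 1. Cdk1, the mitotic kinase, had 3426 at day 0 and 2819 at day 1, and Mki67 (Ki-67) had 14856 at day 0 and 10346 at day 1, a log2 ratio of -0.52. Of 28 homologous recombination genes, Rad51d rose and none fell. Of 22 measured G1 cyclins, CDKs, and E2F factors, 3 fell and 1 rose, with a median log2 ratio of 0.16. Those that fell were Myc, from 2091 to 324, Ccnd1 (cyclin D1), from 10424 to 3502, and Cdk6, from 5098 to 2065, and E2f2 rose from 688 to 2149. The other D cyclins, Ccnd2 and Ccnd3, had log2 ratios of -0.08 and 0.05, and Ccne1, Ccne2 (cyclins E), and Cdk2 had 0.73, 0.97, and 0.91. In bulk RNA, fewer cells that express a gene and less RNA per cell cannot be told apart.

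The same lists stood lower in the other lines. Over the same day, wildtype cells had a median log2 ratio of -0.93 for mitosis genes, with 25 of 61 lower, and -0.70 for DNA replication genes, with 10 of 49 lower, beside a background of 10.6% of measured genes lower and 12.7% higher in that comparison. EMD-/y cells had medians of -0.67 and -0.60, with 6 and 5 members lower, beside backgrounds of 9.67% lower and 12.2% higher. Ccna2 had log2 ratios of -0.04 in +EMD, -1.11 in wildtype, and -0.81 in EMD-/y cells, and Pcna had 0.40, -0.71, and -0.58. From day 1 to day 2, +EMD cells had medians of -1.78 and -1.18, and 57 of 61 mitosis genes and 39 of 49 DNA replication genes fell, where 9.85% of all measured genes fell and 11.2% rose. That later comparison uses the same day 1 libraries. The 3 lines were compared by their values alone, and the difference between them was not tested.

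**Figure D4:**
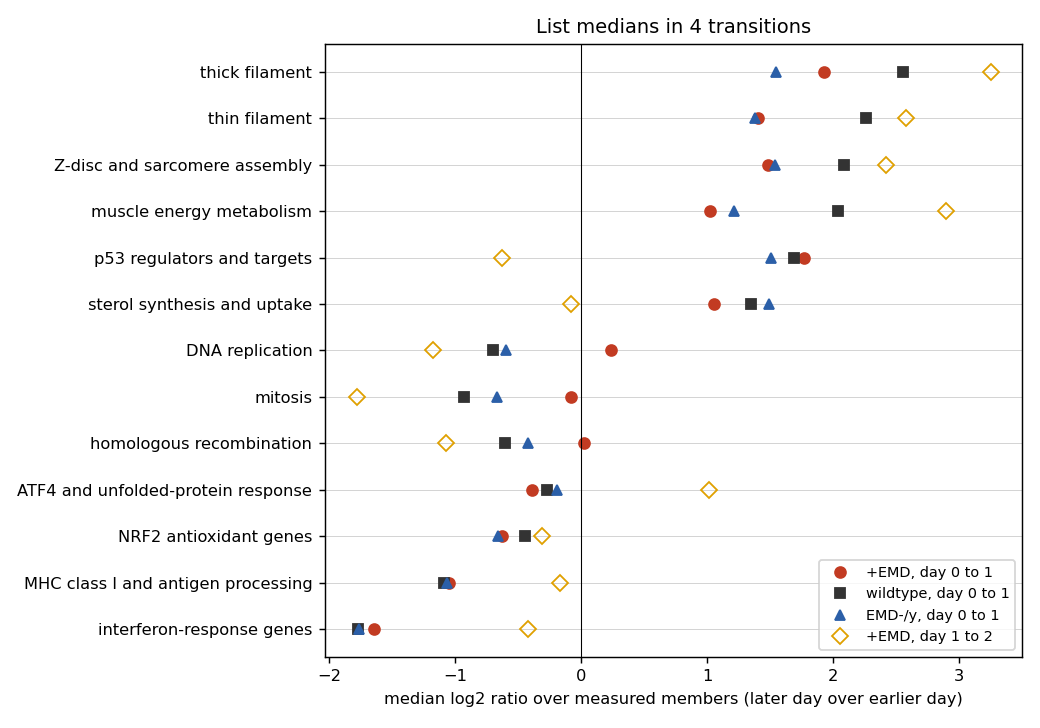
Median log2 ratio (later over earlier day) over the measured members of 13 gene lists for +EMD, wildtype, and EMD-/y cells from day 0 to day 1 and for +EMD cells from day 1 to day 2. Interferon-response medians lie between -1.77 and -1.65 in the 3 lines, while mitosis medians are -0.08 in +EMD, -0.67 in EMD-/y, and -0.93 in wildtype cells. Wildtype values of some interferon-response genes differed between comparisons, as given in the text.

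For the sarcomere lists, the first-day medians in +EMD cells lay below those in wildtype cells. Thick filament genes had medians of 1.93 in +EMD, 2.56 in wildtype, and 1.54 in EMD-/y cells, thin filament genes had 1.40, 2.26, and 1.38, and Z-disc genes had 1.49, 2.09, and 1.54. The members measured differ between lines, with 12, 17, and 18 thick filament genes, 16, 17, and 17 thin filament genes, and 19, 23, and 23 Z-disc genes. On the following day, the thick and thin filament medians in +EMD cells were 3.25 and 2.58, and Myh3 went on to 128188 normalized counts and Acta1 to 204679. The p53 list had similar first-day medians, 1.77 in +EMD, 1.69 in wildtype, and 1.51 in EMD-/y cells, and a median of -0.63 from day 1 to day 2 in +EMD cells. Trp53inp1 and Mdm2 had log2 ratios of -1.19 and -0.91 on that second day, whereas Cdkn1a had 0.53 and Cdkn1c had 1.49.

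Interferon-response genes held the highest share of lowered members among these lists. Interferon signalling induces, through IRF factors among others, guanylate-binding proteins, immunity-related GTPases, and antigen presentation genes. Of 45 measured members, 34 fell and 1 rose, with a median log2 ratio of -1.65. The GTPase Iigp1 had 38059 at day 0 and 6198 at day 1, Irgm1 had 11561 at day 0 and 2067 at day 1, and Gbp2 had 6738 at day 0 and 978 at day 1. The chemokine Cxcl9 fell from 87.9 to 5.84 and the MHC class II genes H2-Aa and H2-Ab1 from 1608 to 64.9 and from 2228 to 227, and the invariant chain gene Cd74 fell from 2924 to 252. Of the factors themselves, Irf1 fell from 3956 to 1849. The member that rose was Ifit1, from 30.8 to 102. Among MHC class I and antigen processing genes, 11 of 21 fell, with H2-T23 lowest (1231 to 194), and B2m, the class I light chain, had 59932 at day 0 and 44063 at day 1. Guanylate-binding proteins, Tgtp genes, and H2 genes have near-identical relatives, between which reads may be split. The list medians in wildtype and EMD-/y cells were -1.77 and -1.76. Wildtype values of some members, such as Iigp1 and H2-Aa, differed between comparisons of the same libraries, so the wildtype median is approximate.

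Promoters of these blocks were read for motifs of the factors named above, as a description of the windows only. The RefSeq windows on GRCm38.p6 run from 250 bases before to 50 bases after a transcription start, and 9927 of the 13182 measured genes had at least 1. A promoter is printed for 1 member of each of 5 lists, the most abundant eligible member whose window held the motif. Where a list had members that met the rule, only those were eligible, except that all mitosis genes were considered. Genes on 1 chromosome, among them Iigp1, were left out of this choice. A printed gene therefore need not be the most abundant such member of its list. Capitals mark the motifs searched, on either strand and with overlaps allowed: the p53 half-site in Ccng1, the interferon-stimulated response element (ISRE) core GAAANNGAA and the gamma-activated site (GAS) TTCNNNGAA in Tgtp2, the CArG box bound by serum response factor in Actc1, the sterol element TCACNCCAC and CCAAT boxes in Hmgcs1, and the cell cycle homology region (CHR) TTTGAA and CCAAT boxes in Top2a.
Ccng1, chr11:40755237-40755536, minus strand: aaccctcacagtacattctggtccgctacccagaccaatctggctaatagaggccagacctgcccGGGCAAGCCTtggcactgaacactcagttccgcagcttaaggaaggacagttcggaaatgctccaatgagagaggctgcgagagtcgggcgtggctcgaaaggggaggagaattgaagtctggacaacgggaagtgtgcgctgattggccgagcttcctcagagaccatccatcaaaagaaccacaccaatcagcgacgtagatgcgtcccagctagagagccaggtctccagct
Tgtp2, chr11:49064163-49064462, minus strand: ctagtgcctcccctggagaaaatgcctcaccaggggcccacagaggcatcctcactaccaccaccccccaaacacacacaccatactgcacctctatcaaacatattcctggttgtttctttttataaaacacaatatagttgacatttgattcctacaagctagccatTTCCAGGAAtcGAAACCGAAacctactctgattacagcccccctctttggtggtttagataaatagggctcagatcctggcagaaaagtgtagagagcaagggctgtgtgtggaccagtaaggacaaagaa
Actc1, chr2:114052826-114053125, minus strand: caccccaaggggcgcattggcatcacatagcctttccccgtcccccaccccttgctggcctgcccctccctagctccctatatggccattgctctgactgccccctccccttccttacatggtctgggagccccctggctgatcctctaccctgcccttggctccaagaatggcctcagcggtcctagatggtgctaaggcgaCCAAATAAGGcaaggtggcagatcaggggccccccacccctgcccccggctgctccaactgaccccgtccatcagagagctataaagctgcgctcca
Hmgcs1, chr13:119690101-119690400, plus strand: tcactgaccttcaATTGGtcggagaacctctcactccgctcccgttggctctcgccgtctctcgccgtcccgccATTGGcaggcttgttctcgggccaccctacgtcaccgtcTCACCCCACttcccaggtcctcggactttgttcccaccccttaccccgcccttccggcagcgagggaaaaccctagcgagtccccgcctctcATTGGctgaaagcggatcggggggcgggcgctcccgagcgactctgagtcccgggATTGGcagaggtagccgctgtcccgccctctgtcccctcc
Top2a, chr11:99024140-99024439, minus strand: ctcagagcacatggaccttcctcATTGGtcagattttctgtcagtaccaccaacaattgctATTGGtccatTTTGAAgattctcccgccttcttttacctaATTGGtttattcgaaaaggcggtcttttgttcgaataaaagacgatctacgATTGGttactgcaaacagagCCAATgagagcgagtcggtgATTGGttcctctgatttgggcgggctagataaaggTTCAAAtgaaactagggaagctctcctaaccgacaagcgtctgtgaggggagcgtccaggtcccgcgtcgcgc

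In the window of Ccng1 the half-site ended 175 bases before the start site. The GAS and ISRE matches of Tgtp2 ended 72 and 61 bases before it, and that gene had 11282 at day 0 and 2609 at day 1. The CArG box of Actc1 ended 37 bases before the start. The window of Top2a, a mitotic topoisomerase with 14166 at day 0 and 12397 at day 1, held 2 CHR matches and 6 CCAAT boxes. The window of Hmgcs1 held 1 sterol element and 4 CCAAT boxes.

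Counted over lists, a p53 half-site was present for 45% of the 20 p53 genes with a window, against 8.39% of all 9927 genes. An ISRE core was present for 63.6% of 33 interferon-response genes against 8.39%, and a GAS for 36.4% against 8.15%. The E-box CAGCTG, which the myogenic factors bind, was present for 36.4% of 11 thick filament and 50% of 12 thin filament genes, for 28.1% of the 938 genes that rose, and for 15.4% of the 583 that fell, against 18.1% of all. A MEF2 site was present for 3 of 11 thick filament genes (27.3%), 4 of 14 Z-disc genes (28.6%), and 0 of 12 thin filament genes, against 2.12% of all. A CArG box was present for 2 of 12 thin filament, 1 of 11 thick filament, and 1 of 14 Z-disc genes (16.7%, 9.09%, and 7.14%), against 1.62%. For the E-box, the MEF2 site, and the CArG box, these sarcomere lists hold too few genes to be compared with each other. The cell cycle lists, whose members did not meet the rule apart from Ccnf, carried their own motifs: a CHR for 68% of 50 mitosis genes against 14.2%, and 1 of the E2F motifs TTTCGCGC, TTTGGCGC, and TTTCCCGC for 36.6% of 41 DNA replication genes against 4.12%. CCAAT boxes were present for 89.5% of 19 sterol genes and 70% of mitosis genes against 43.2%. The sterol element was present for 1 of the 19 sterol genes, the printed Hmgcs1, or 5.26% against 1.38%, so that window is not typical of the list.

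**Figure D5:**
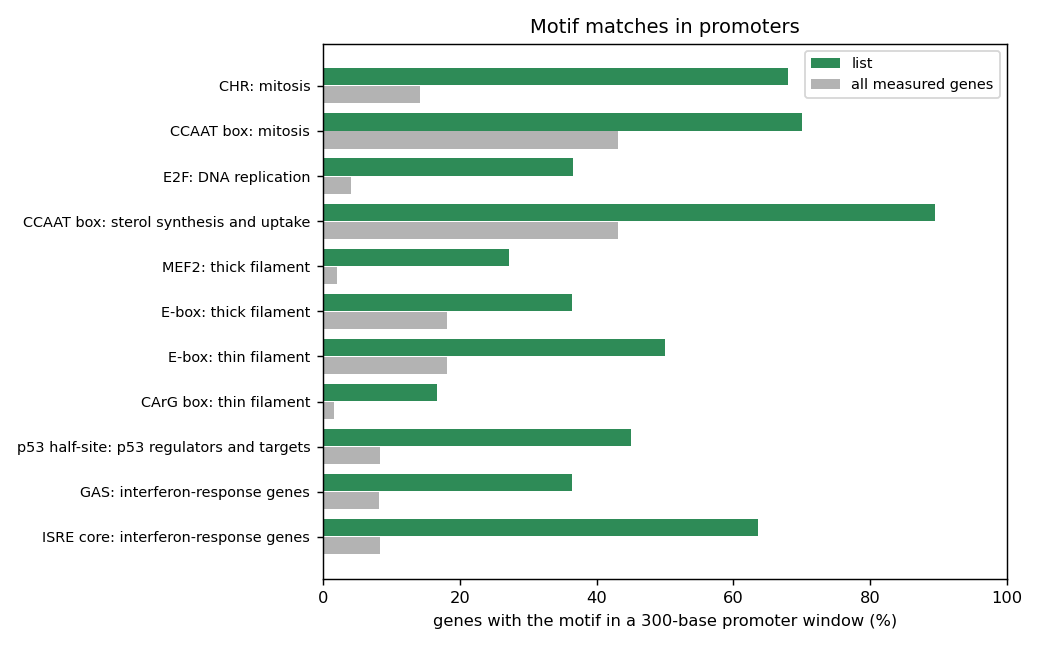
Percent of genes with a motif in a 300-base promoter window, for the list named beside each motif and for all 9927 measured genes with a window. The pairs run from 68.0% against 14.2% for the CHR in mitosis genes to 63.6% against 8.39% for the ISRE core in interferon-response genes.

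Sterol genes rose together. Of 27 measured genes of sterol synthesis and uptake, 16 rose and none fell, with a median log2 ratio of 1.05. Hmgcs1, which makes the precursor of mevalonate, rose from 2282 to 5304 normalized counts, Msmo1, a sterol oxidase, from 1425 to 4839, and Idi1, an isoprenoid isomerase, from 1462 to 4379. Tm7sf2, a sterol reductase, rose most, from 1.86 to 114, and it also rose in wildtype and EMD-/y cells, with log2 ratios of 7.25 and 7.15. List medians were 1.35 in wildtype and 1.49 in EMD-/y cells, and -0.08 in +EMD cells on the second day. Of the fatty acid genes, Scd1 and Scd2 (stearoyl-CoA desaturases), Fads2, and Acss2 rose, 4 of 15, with Scd2 going from 8755 to 19782.

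Among stress-response lists, members fell more often than they rose for ATF4 and NRF2 genes, while few heat-shock genes met the rule. Of 32 ATF4 and unfolded-protein response genes, 8 fell, among them Asns, asparagine synthetase (2989.7 to 781), Trib3 (190.3 to 46.9), and Shmt2, a mitochondrial enzyme of serine metabolism (5263 to 2032). The 2 that rose, Sesn2 (390.0 to 2094) and Ddit4 (206 to 1295), are inhibitors of mTORC1 signalling that p53 also induces, and Sesn2 is a member of the p53 list too. On the second day that list had a median of 1.01 in +EMD cells, with 18 of 32 members higher. NRF2 antioxidant genes fell in 9 of 24 cases and rose in none, including Nqo1, a quinone reductase (3901 to 873), and Txnrd1, thioredoxin reductase (13307 to 5382). Of 24 heat-shock and temperature-response genes, 2 fell and 1 rose, with a median log2 ratio of 0.13. Those shares were 8.33% against 7.17% of all measured genes for the fall, and 4.17% against 10.7% for the rise. Rbm3 and Cirbp, cold-inducible RNA-binding proteins, fell from 21632 to 5958 and from 837 to 267, and Cryab, a small chaperone abundant in muscle, rose from 2237 to 7255. The sources differ on whether the culture temperature changed: the methods give a higher one for differentiation than for proliferation, the sample labels the same one for both. Its part was not tested.

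Signalling genes moved in both directions. Of 40 TGF-β, BMP, and myostatin genes, 15 fell and 6 rose. The inhibitory SMADs Smad6 and Smad7 fell from 321 to 87 and from 528 to 186. Noggin (Nog) fell from 241 to 55.4, with log2 ratios of 0.01 in wildtype and -0.39 in EMD-/y cells. Tgfb2 had log2 ratios of -1.39 in +EMD, 0.48 in wildtype, and 0.08 in EMD-/y cells, a comparison that was not tested. Tgfb3 rose from 672 to 1802 and Tgfbr3, betaglycan, from 7.01 to 63.2. Of the Yap and SRF targets, 6 of 30 fell, among them Ccn1 (8906 to 4154) and Ankrd1 (9724 to 3725), and 2 rose, Ptpn14 (3201 to 7455) and Tead4 (630.3 to 1668). In the immediate-early and ERK feedback list, 9 of 35 fell and 2 rose. Those that fell included the phosphatase Dusp6 (1729 to 627) and the transcription factor Egr2 (402 to 74), while Egr1 had 2579 at day 0 and 2442 at day 1, and Fos and the feedback inhibitor Spry1 rose from 95 to 216 and from 234 to 586. Notch genes rose in 6 of 21 cases, such as Notch3 (1161 to 3857), and the glycosyltransferase Lfng fell (345 to 57.6). In the insulin-like growth factor axis, 3 of 18 rose and 3 fell. Igf2r rose from 2455 to 7755 and Igfbp5 from 6672 to 16610.5, and Igfbp4 fell from 2592 to 1159. Igf2 itself, an autocrine factor of differentiating myoblasts, had 34513 at day 0 and 47903 at day 1.

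In the list of glycolysis and hypoxia genes, 10 of 33 rose and 4 fell. Ldhb, a lactate dehydrogenase subunit, rose most (45.3 to 374 normalized counts), and Bnip3, a mitophagy receptor, rose from 592 to 1826, while Hk2, hexokinase 2, fell from 1576 to 509, Vegfa from 2095 to 786, and Apln, apelin, from 164 to 49.9. Cytokine and chemokine genes fell in 8 of 24 cases, including Csf1, a macrophage growth factor (14168 to 4458), and Bdnf (359 to 48.9), and Lif, Il15, and Ccl7 rose, Lif from 77.6 to 249.

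In 3 of the matrix lists, similar numbers rose and fell, with 7 higher and 7 lower of 29 proteases, inhibitors, and crosslinkers, 4 and 5 of 30 basement membrane and matricellular genes, and 4 and 4 of 21 proteoglycans and syndecans. Their shares lay between 13.3% and 24.1% higher and between 16.7% and 24.1% lower, against 10.7% and 7.17% of all measured genes. Spp1, osteopontin, fell from 79463 to 15918 normalized counts, and Tnc, tenascin C, fell from 8345 to 1214, Timp3 from 14702 to 2289.7, and the crosslinking enzyme Lox from 7157 to 2187. Serpine2, a protease inhibitor, rose from 539 to 6853, and the aggrecanase Adamts5 from 186 to 945. Of 32 measured collagens, 5 rose and 2 fell (15.6% and 6.25%). The fibrillar Col1a1 rose from 588 to 1308, Col8a2 fell from 342 to 87, and Col25a1, a membrane collagen of muscle, fell from 138 to 54.9. Col25a1 had log2 ratios of 2.01 in wildtype and 1.07 in EMD-/y cells. Of 20 measured integrins, 6 rose and 1 fell. Itga10, a collagen-binding subunit, rose from 10.8 to 63 and Itgb4, a laminin-binding subunit, from 289 to 735, while Itga11 fell in +EMD cells (300.4 to 84.4) where wildtype cells had a log2 ratio of 1.75. Those contrasts between lines were not tested.

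Genes of the nuclear lamina, where emerin resides, met the rule about as often as all genes or less. Of 25 measured, 2 rose (8% against 10.7%), Syne1 (nesprin-1, 851 to 1726) and Tmem38a, an ion channel gene also counted with excitation-contraction coupling (652 to 3471), and none fell. Lmna, encoding lamins A and C, had 20666 at day 0 and 16473 at day 1, Lmnb1 (lamin B1) had 3217 at day 0 and 4083 at day 1, Lbr (lamin B receptor) had 1959.7 at day 0 and 2445 at day 1, and Tmpo (LAP2) had 9404 at day 0 and 10026 at day 1. Lmnb1 had log2 ratios of 0.34 in +EMD, -0.90 in wildtype, and -0.62 in EMD-/y cells. Of 38 chromatin regulators, 3 fell and 2 rose (7.89% and 5.26%), near or below the shares over all genes. The architectural proteins Hmga1 and Hmga2 fell from 18022 to 5978 and from 5369 to 1513, H2ax fell from 1643 to 792, and the histone deacetylases Hdac11 and Hdac9 rose from 74.6 to 436 and from 18.2 to 47.8.

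For the whole set, direction was often shared with the other lines. Of the 1312 genes that rose in +EMD and were measured in wildtype cells, 906 (69.1%, against 11.8% of all genes measured in both) also rose there, which is 60.0% of the 1510 such genes that rose in wildtype, and 65 fell. Of the 840 that fell in +EMD cells and were measured, 521 (62.0%, against 9.96%) also fell in wildtype, which is 40.9% of the 1273 that fell in wildtype, and 31 rose. Of the 65 and the 31 genes with opposite directions, 7 and 12 have a symbol, and the others are predicted genes. All counts of this paragraph include predicted genes. Whether their identifiers denote the same gene in each comparison was not tested. In EMD-/y cells, 976 of 1363 (71.6%, against 11.2%) also rose and 574 of 891 (64.4%, against 9.21%) also fell, or 67.4% and 48.0% of the genes that did so there.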

How the data were processed

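Poly-A RNA was sequenced by the authors' provider, and reads were filtered with SOAPnuke, aligned to mm10 with HISAT2, and compared with DESeq2. Versions, the counting step, and the annotation are not given in the sources used here. The signal values as deposited by the authors are 1 normalized count per group and gene. No table holds a column per sample (0 such columns). The columns of fold changes, p-values, and calls hold the authors' own comparisons and were not used.

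The values are not plain means: 787 genes took 1 of 6 lowest value pairs, above 0 in both groups although 1 read in 1 library explains their average, so group ratios are moderated by DESeq2 and low ones understated. Gene symbols came from RefSeq (GRCm38.p6), which matched 15831 of 17378 identifiers; 1526 are predicted genes and 21 others had no match.

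Lists and rules were chosen with earlier results of these data known. The text names Emd, the 10 largest ratios in each direction (larger value at least 100, smaller at least 3), the 5 largest gains and losses, the highest, most raised, and most lowered member of each list, and 40 fixed genes, a few of which are not reported here. All others were chosen after their values were seen, as were the ISRE, p53, and sterol motifs and the ribosomal proteins. Calls need a 2-fold ratio and a larger value of at least 10, with no pseudocount, and were run on simulated data. Those data held only changes larger than 2-fold, in genes with many reads and with counting noise alone. They therefore give no check of calls near the threshold or at low values. Tables were normalized separately, so ratios were taken within a table. Python 3.11.15, numpy 2.4.6, pandas 2.3.3, and matplotlib 3.10.9 were used.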

Additional observations from a re-analysis of the deposited data

How the results depend on the processing

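The 1406 genes that rose became 2514 with a ratio of at least 1.5 and 459 with a ratio of at least 4, the 945 that fell became 2034 and 211, and the 321 list members that rose or fell became 101 with a ratio of at least 4. Under the other alternatives (pseudocounts of 1 and 10, no filter, a larger value of at least 50, column sums, median centring, no predicted genes, and values from the tables against wildtype cells), these counts stayed within 1.5 times. Dividing by column sums, which differ by -0.07 on the log2 scale, gave 1537 genes that rose and 833 that fell. Of 1700 log2 ratios of named genes under the 10 alternatives, 1620 moved by less than 0.2 and none of a gene that met the rule changed sign. Of the list counts, 130 moved by more than 1.5 times and 750 did not; 89 of those 130 did so under a ratio of at least 1.5 or 4. Of the list medians, 16 moved by 0.2 or more, 8 of them with no filter on low values, and 423 did not. No library could be left out and no paired analysis was possible because each group has 1 deposited value.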

Other observations

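A few abundant genes with many processed copies in the mouse genome went the other way in +EMD than in the other lines; they were noticed after their values were seen. Gapdh, a glycolytic enzyme, had 14962 at day 0 and 7889.5 at day 1 in +EMD cells, a log2 ratio of -0.92, against 2.06 in wildtype and 2.42 in EMD-/y cells. Rps13, a protein of the small ribosomal subunit, had 1791 at day 0 and 360.0 at day 1, with log2 ratios of -2.31, 1.22, and 1.41 in the same order. Rps29 had 267 at day 0 and 112 at day 1, with -1.25, 1.51, and 1.63, and Atp5g2, an ATP synthase subunit, had 1853 at day 0 and 596 at day 1, with -1.64, 1.62, and 1.97. Over all 80 measured cytosolic ribosomal protein genes, the median log2 ratio was -0.20 in +EMD, -0.08 in wildtype, and -0.14 in EMD-/y cells, with 4 genes lower and 1 higher in +EMD. How reads were assigned between copies is not given in the sources used here, and its part was not tested. In all, 19 genes with a symbol met the 2-fold rule in opposite directions in +EMD and wildtype cells, 12 of them lower in +EMD. These include Stc2, stanniocalcin 2 (682 at day 0 and 316 at day 1, log2 ratios of -1.11 and 2.05), and Fgf21, a stress-induced hormone (62.2 at day 0 and 31 at day 1, with a wildtype log2 ratio of 2.50).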
